A study of Homo sapiens with 12 samples.

Results

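The DNA replication and S-phase genes described here are 33 human genes that act when chromosomes are copied. They were taken by name, through their Entrez Gene ID, from 21508 listed gene identifiers. All 33 were listed in all 12 libraries, and all 33 passed the filter on low counts that left 15990 genes for testing. Polyadenylated RNA was sequenced from EndoC-βH1, a human beta-cell line made from fetal pancreas with the SV40 large T antigen and telomerase, so every group carries both transgenes. Cells received siRNAs against TUNAR, a long noncoding RNA, or a negative control siRNA, and after 2 days were given 5 µM of the GSK3 inhibitor 1-AKP or DMSO for 24 hours. The 4 groups of 3 libraries are TUNAR siRNAs with 1-AKP, negative siRNA with 1-AKP, TUNAR siRNAs with DMSO and negative siRNA with DMSO. In each group, replicates 1 and 2 were at passage 74 and replicate 3 at passage 75. The labels do not say what else a replicate number marks, nor whether replicates are separate cultures, so p-values measure the spread between these libraries, which may be technical.

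Replication begins with licensing, when the origin recognition complex (ORC1 and ORC6 are subunits) and the loaders CDC6 and CDT1 place the ring of MCM2 to MCM7 on DNA. In S phase CDC45 and the GINS complex join that ring to make the active helicase, and polymerases, the PCNA clamp and its loader follow behind it. Most of these genes are transcribed by E2F factors, which the retinoblastoma protein holds back until a cell commits to division; large T antigen binds that protein, and adult human beta cells rarely divide.

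Library totals ran from 15653786 to 15986834 expected counts (estimated reads per gene), of which the 33 genes together took between 0.476% and 0.56%. TUNAR, the targeted gene, was at 6.95 to 13.6 CPM (counts scaled to a common library size) with TUNAR siRNAs against 27.9 to 31.0 CPM with negative siRNA in 1-AKP, and at 3.83 to 8.09 CPM against 14.4 to 19.9 CPM in DMSO, so the groups did not overlap. INS averaged 24846 FPKM (fragments scaled by gene length and library depth) and PDX1 119 FPKM over the 12 libraries, while GCG averaged 0.146 FPKM and PPY, PRSS1, CELA3A, PNLIP, LUM and HBB were at 0. Of 30 listed markers of other cell types, 14 passed the filter on low counts. Among these, TTR averaged 1408.5 FPKM, KRT19 39.6 FPKM, SST 20.5 FPKM, CD68 18.7 FPKM, CPA1 17.4 FPKM and IRX2 10.4 FPKM. The 4 libraries numbered 1 stood apart from the other 8 in the summed level of the members and in the G2 and mitosis genes, as given below. Their medians over members overlapped those of replicate 2. Comparisons are given with and without these 4 libraries. Expected counts were whole in all libraries for 21 of the 33 genes, and 6 have named pseudogenes that could share reads (PCNA, RRM2, TYMS, ORC1, FEN1 and RFC3). In the RefSeq annotation 7 overlap another coding gene (MCM7, GINS2, TYMS, CCNE2, UHRF1, ORC1 and CHAF1A), and because the labels state no strand marking, reads of such pairs cannot be told apart.

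In levels per length, the 33 genes had a median of 27.8 FPKM over the 12 libraries, against 8 FPKM for all genes tested. PCNA, the sliding clamp, was the highest at 309 ± 14.6 FPKM (SD over 12 libraries). RRM2, the regulated subunit of ribonucleotide reductase, followed at 193 ± 9.03 FPKM, and MCM7, a helicase subunit, at 133 ± 11.8 FPKM. None of these 3 overlapped another in its range, since PCNA never fell below 284 FPKM, RRM2 lay between 179 and 206 FPKM, and MCM7 did not exceed 150 FPKM. RRM1, MCM3, MCM2, SLBP, MCM6, E2F1 and MCM4 came next, with means between 94.8 and 76.2 FPKM. In that order the range of each over the libraries overlapped that of the next. The 3 lowest were GINS3 at 8.74 ± 0.892 FPKM, E2F2 at 6.36 ± 0.601 FPKM and MCM10, which helps to start the helicase, at 4.04 ± 0.393 FPKM.

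**Figure D1:**
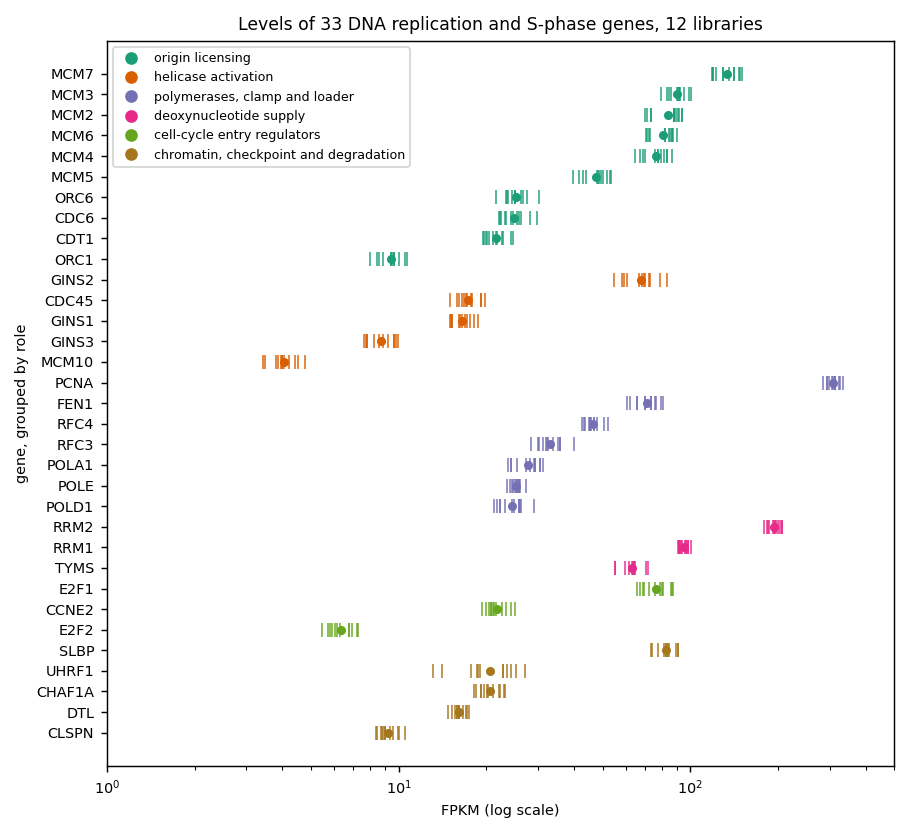
FPKM of each of the 33 genes on a log axis, grouped by role; each tick is 1 of the 12 libraries and the dot is their mean. PCNA lies at 309 FPKM and MCM10 at 4.04 FPKM, and no gene spans more than 2.01-fold between its lowest and highest library on the scaled counts.

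Sequences upstream of the genes were read to see what the members share beyond their names. RefSeq promoter windows (GRCh38.p14, from 250 bases before to 50 bases after an annotated start) were matched for 30 of the 33 genes, all but MCM4, MCM5 and CCNE2. The files themselves were made on GRCh37, so no coordinate below is set against them. The letters TTTCCCGC, TTTCGCGC, TTTGCCGC and TTTGGCGC, forms of the E2F motif, were searched on both strands. At least 1 of the 4 occurred in the windows of 19 of the 30 genes (63.3%), against 6.19% of the 12444 tested genes with a window and 3.99% of all 27305 genes with one. CCAAT, the motif of NF-Y, occurred in 66.7% of the 30 genes, 42.5% of tested genes and 39.7% of all. TTTGAA, a motif known from promoters of mitotic genes, occurred in 3.33% of the 30 genes, 13.8% of tested genes and 18.2% of all. CDC45, CHAF1A, FEN1, MCM10, ORC1, ORC6, POLD1, RFC4, RRM1, RRM2 and SLBP had none of the 4 E2F forms in these windows, which says only that those letters are not there.

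Shown are 30-base stretches around the E2F letters of genes whose levels the results below turn on, 5′ to 3′ on the strand of the gene, with the matched letters in capitals. MCM6 has 2 places, at chr2:135876577-135876606 and chr2:135876515-135876544 on the minus strand, and in each of them TTTGGCGC overlaps TTTCGCGC read on the opposite strand. MCM3 is at chr6:52284898-52284927 (minus), MCM7 at chr7:100101566-100101595 (minus) and GINS2 at chr16:85688967-85688996 (minus). POLA1 is at chrX:24693770-24693799 (plus), UHRF1 at chr19:4909973-4910002 (plus), RFC3 at chr13:33818083-33818112 (plus) and E2F2 at chr1:23531257-23531286 (minus).
MCM6, first place: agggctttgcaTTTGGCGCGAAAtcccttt
MCM6, second place: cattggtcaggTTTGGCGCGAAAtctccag
MCM3: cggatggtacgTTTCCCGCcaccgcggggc
MCM7: cagctcggaccGCGGGAAAcccggcgcctg
GINS2: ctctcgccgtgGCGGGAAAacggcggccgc
POLA1: gtcatcacaggGCGCCAAAcgcgcgtccgc
UHRF1: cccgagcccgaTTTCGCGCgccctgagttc
RFC3: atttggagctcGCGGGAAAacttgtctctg
E2F2: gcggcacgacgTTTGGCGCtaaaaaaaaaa
The capitals begin between 187 bases (MCM7) and 31 bases (GINS2) before the annotated start. MCM7, GINS2 and RFC3 hold the same GCGGGAAA, the opposite strand of TTTCCCGC.

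In the libraries numbered 1, 23 of the 33 genes fell and 5 rose relative to those numbered 2 and 3, where 21.5% of all genes tested were lower and 20% higher by the same test (edgeR's quasi-likelihood test in a fit of group and replicate number, Benjamini-Hochberg adjusted p under 0.05 over all genes). The genes that fell are thus 69.7% of the 33 and those that rose 15.2%. The fit treats the 4 libraries of a number as separate. If a number marks 1 culture or batch, p-values between numbers do not measure the spread between cultures. This also holds for replicate 3 against replicate 2 below. The median log2 fold change of the 33 was -0.12, against -0.00064 for all genes tested. The split of number 1 from the others was known from earlier results on these data, so it is not an independent comparison. A lower level in bulk RNA can come from fewer cells in S phase or from less RNA per cell, and these cannot be told apart. Within every 1 of the 4 groups the library numbered 1 was the lowest for 11 members (17.1% of all genes tested) and the highest for 3 (16.2%). The 11 were MCM2 to MCM7, MCM10, GINS2, POLA1, UHRF1 and CLSPN, and the 3 were GINS1, ORC6 and RFC3.

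**Figure D2:**
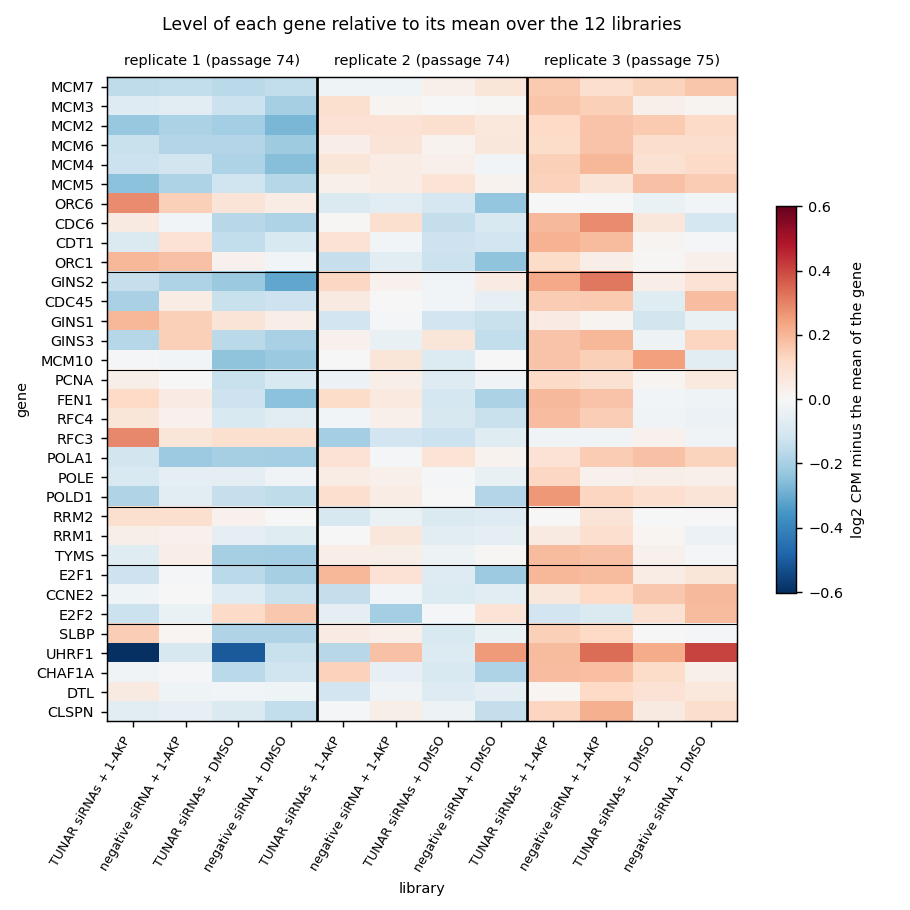
Log2 CPM of each of the 33 genes (rows, grouped by role) minus its mean over the 12 libraries (columns, in 3 blocks by replicate number); red is above the mean of the gene and blue below. MCM2 to MCM7 are blue in all 4 libraries numbered 1, ORC6 and RFC3 are red there, and the block of replicate 3 is mostly red.

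Among licensing genes, 8 of 10 fell and 2 rose in the libraries numbered 1. MCM2, a subunit of the helicase ring, was at 251, 258, 255 and 243 CPM in replicate 1 (in the order of the groups above), against a lowest of 308, a median of 317 and a highest of 332 CPM in the other 8 libraries. All 4 values lay below the lowest of the 8, and the log2 fold change was -0.34 (SE 0.022, edgeR, adjusted p = 2.82e-15). MCM3, another subunit, was at 277, 279, 267 and 254.5 CPM in replicate 1, against 293, 297 and 328 CPM for the lowest, median and highest of the others (log2 fold change -0.18, SE 0.023). MCM4 was at 336, 340.0, 323 and 308 CPM in replicate 1, against 364, 389 and 422.5 CPM in the others (-0.26, SE 0.022). Neither gene overlapped between the replicates. MCM5 was at 102.5, 107, 112 and 108 CPM in replicate 1, against 124, 129 and 138 CPM (-0.27, SE 0.027). MCM6, whose 2 E2F places are shown above, was at 279.8, 272, 272 and 265 CPM in replicate 1, against 311, 327 and 346 CPM (-0.26, SE 0.022). MCM7 was at 363, 365, 361 and 365 CPM in replicate 1, against 397, 429.5 and 454 CPM (-0.23, SE 0.021). The 6 subunits, which work as 1 ring, thus all fell, by 0.18 to 0.34 on the log2 scale. None of them overlapped, and adjusted p-values in edgeR ran from 2.82e-15 to 5.54e-08. The share of all genes tested without such overlap across groups was not counted for this comparison.

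The smallest subunit of the origin recognition complex went the other way. ORC6 was at 49.9, 45.3, 43.2 and 42.3 CPM in replicate 1, against 35.0, 39.5 and 41.1 CPM for the lowest, median and highest of the other 8, so that all 4 lay above all 8 (log2 fold change 0.21, SE 0.04, edgeR, adjusted p = 7.71e-05). ORC1, the large subunit, also rose (0.15, SE 0.045), with ranges that overlapped. CDC6 and CDT1, the loaders, fell by 0.12 and 0.089.

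Of the 5 genes of helicase activation, 3 fell, 1 rose and GINS3 did not pass (log2 fold change -0.14, edgeR, adjusted p = 0.0616). GINS2 was at 72.0, 69.8, 67.9 and 63.8 CPM in replicate 1, against 78.45, 83.1 and 98.7 CPM for the lowest, median and highest of the others (log2 fold change -0.32, SE 0.035, edgeR, adjusted p = 1.43e-09). GINS1, a subunit of the same complex, rose by 0.17 (SE 0.035, edgeR, adjusted p = 0.000138), with 55.8 to 62.3 CPM in replicate 1 and 49.5 to 56.2 CPM in the others. These 2 partners in 1 complex thus moved in opposite directions, with GINS2 not overlapping between the replicates and GINS1 overlapping slightly.

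Among the polymerases, the clamp and its loader, 5 of 7 fell and 1 rose. POLA1, the catalytic subunit of the polymerase that starts each new strand, was at 141, 131, 133 and 132 CPM in replicate 1, against 151.5, 162 and 172 CPM for the lowest, median and highest of the others (log2 fold change -0.28, SE 0.027, edgeR, adjusted p = 1.85e-10). POLD1, the catalytic subunit of the lagging-strand polymerase, was at 74.6, 80.9, 76.9 and 76.1 CPM in replicate 1, against 74.8, 90.0 and 101 CPM (-0.20, SE 0.035). POLA1 did not overlap, whereas 1 library of the other 8 (negative siRNA with DMSO, replicate 2) was as low in POLD1 as those numbered 1. RFC3, a subunit of the clamp loader, was at 95.4, 82.1, 83.4 and 83.5 CPM in replicate 1, against 67.8, 75.4 and 79.5 CPM (0.21, SE 0.036, edgeR, adjusted p = 1.55e-05). All 4 of these lay above all 8, while RFC4 of the same loader did not pass (-0.022, edgeR, adjusted p = 0.622). PCNA, POLE and FEN1 fell by 0.068 to 0.088.

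In the remaining groups, UHRF1, which brings the maintenance DNA methyltransferase to newly copied DNA, moved the most of all 33 genes. It was at 54.8, 77.9, 58.7 and 75.9 CPM in replicate 1, against 74.05, 96.1 and 110 CPM for the lowest, median and highest of the others (log2 fold change -0.49, SE 0.039, edgeR, adjusted p = 6.88e-11). It was the lowest of its group in all 4 groups, although ranges across groups overlapped. TYMS, thymidylate synthase, was at 95.3, 103, 87.2 and 86.8 CPM in replicate 1, against 97.9, 102 and 114 CPM (-0.16, SE 0.031, edgeR, adjusted p = 4.66e-05), and overlapped. RRM2 rose by 0.083 and RRM1 did not pass (-0.028, edgeR, adjusted p = 0.312). CCNE2, cyclin E2, was at 58.3, 59.5, 56.3 and 54.0 CPM in replicate 1, against 53.65, 60.4 and 68.0 CPM (-0.087, SE 0.036, edgeR, adjusted p = 0.0486). Of its 19 alternative settings 14 ended that call, and 14 and 12 ended those of CDT1 and SLBP. Of the 28 calls, 18 held under all 19 alternatives, among them MCM2 to MCM7, GINS2, POLA1, UHRF1, ORC6 and RFC3, and none changed direction.

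**Figure D3:**
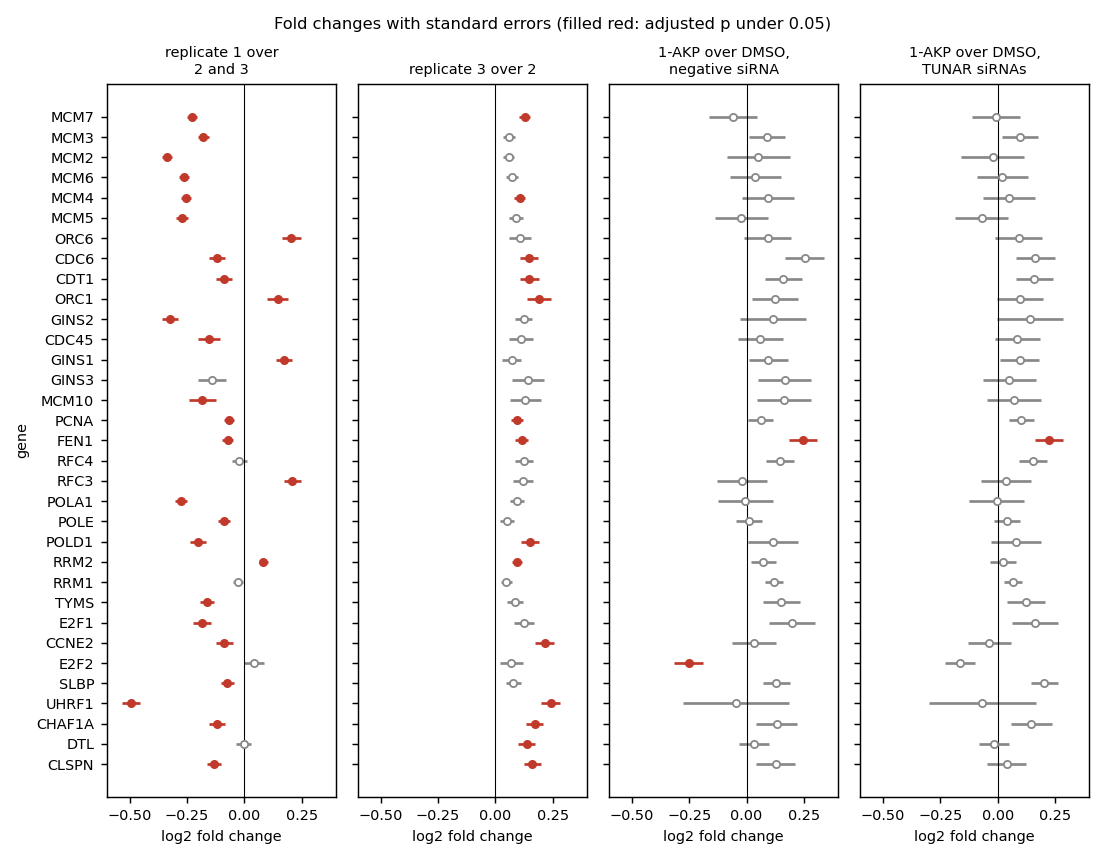
Log2 fold change of each of the 33 genes with its standard error in 4 comparisons; filled red points passed at an adjusted p under 0.05. Points of replicate 1 spread from -0.49 (UHRF1) to 0.21 (RFC3), those of replicate 3 over 2 all lie above 0, and in 1-AKP over DMSO FEN1 passed with both siRNAs and E2F2 with negative siRNA.

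Genes of other cell-cycle phases differed between the same libraries. All 28 genes of a G2 and mitosis list rose in the libraries numbered 1, with a median log2 fold change of 0.57, and their summed level was 4952 to 5328 CPM in replicate 1 against 3356 to 3727 CPM in the others. BIRC5, a subunit of the chromosomal passenger complex, was at 192, 176, 180.3 and 170 CPM in replicate 1 and at 97.9 to 113 CPM in the others (0.80, SE 0.026). HMMR, a spindle-associated protein, rose by 0.86 (SE 0.03). The summed level of the 33 replication genes was 4693 to 5010 CPM in replicate 1, against 5037 to 5233 CPM in replicate 2 and 5370 to 5644 CPM in replicate 3, so those ranges did not overlap either.

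**Figure D4:**
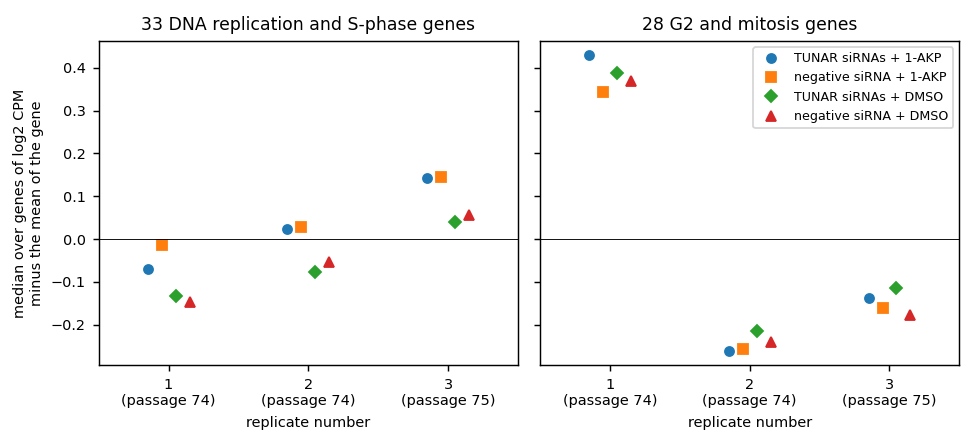
Median over the 33 replication genes (left) and over the 28 G2 and mitosis genes (right) of log2 CPM minus the mean of the gene, for each library, by replicate number; marker shape and colour give the group. For the 33 genes the libraries numbered 1 lie between -0.15 and -0.0135 and those numbered 3 between 0.04 and 0.145. Those numbered 2 lie between -0.077 and 0.028 and overlap those numbered 1. For the G2 and mitosis genes those numbered 1 lie between 0.34 and 0.43 and all others below 0.

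Of 40 further fork and origin genes 12 fell and 6 rose in the libraries numbered 1, with a median log2 fold change of -0.0051. POLD3, RFC2, ORC2 and RNASEH2A fell by 0.16 to 0.27, and POLD4 and CHTF18 rose by 0.54 and 0.31. Of 32 further S-phase, nucleotide and chromatin assembly genes 12 fell and 7 rose (median -0.052). CCNA2, cyclin A, which acts in S phase and G2, was the one with the lowest p among them and rose by 0.58 (SE 0.028).

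Markers of cell identity moved with the replicate number as well. Of 12 beta-cell markers 10 fell and 1 rose in the libraries numbered 1 (median -0.21, summed level 12760 to 13550 CPM against 15150 to 16970 CPM), with INS at -0.34. SST, the delta-cell hormone, was at 28.1 to 33.5 CPM in replicate 1 and at 3.8 to 6.52 CPM in the others. Of the 14 tested markers of other cell types 6 rose, TTR by 0.25 among them, and 4 fell, and their summed level was 1539 to 1739 CPM in replicate 1 against 1249 to 1558 CPM. CDKN1A, the p21 inhibitor of cyclin-dependent kinases, rose by 0.92 and CDKN2C by 0.21, 2 of the 3 of 9 tested inhibitors and p53 targets that rose, while 3 fell. The part of cell composition in the difference of the 33 genes was not tested.

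Replicate 3 (passage 75) against replicate 2 (passage 74) gave a more uniform difference, of about the same median size over the 33 genes. All 33 log2 fold changes were above 0, with a median of 0.12 against -0.00087 for all genes tested, and 14 of the 33 rose and none fell (edgeR, same fit). By the same test 0.994% of all genes tested rose and 1.84% fell, against the 42.4% of the 33 that rose. In every 1 of the 4 groups 26 of the 33 were higher in replicate 3 than in replicate 2, which held for 11.2% of all genes tested. Passage and replicate number cannot be told apart in this design.

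UHRF1 was at 94.9, 105, 97.2 and 110 CPM in replicate 3, against 74.05, 93.9, 78.5 and 99.3 CPM in replicate 2 (log2 fold change 0.24, SE 0.042, edgeR, adjusted p = 0.00134). CCNE2, which with CDK2 drives entry into S phase, was at 62.2, 64.5, 66.3 and 68.0 CPM in replicate 3, against 53.65, 58.6, 56.0 and 56.6 CPM in replicate 2 (0.22, SE 0.041, edgeR, adjusted p = 0.00146). CCNE2 did not overlap between these replicates, and UHRF1 did, though it was higher in replicate 3 in each group. The share of all genes tested that did not overlap between these replicates was not counted. MCM7 was at 451, 434, 444 and 454 CPM in replicate 3, against 398, 397, 413 and 425 CPM in replicate 2, with no overlap (0.13, SE 0.024, edgeR, adjusted p = 0.00149). The other 11 that rose were MCM4, CDC6, CDT1 and ORC1 in licensing, PCNA, POLD1 and FEN1 at the fork, RRM2, and CHAF1A, CLSPN and DTL, by 0.093 to 0.19. None of the 5 genes of helicase activation passed, with log2 fold changes of 0.072 to 0.14.

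All 28 G2 and mitosis genes were also above 0 in this comparison (median 0.0945) and 7 of them rose, with the lowest p for MKI67 and TPX2, at 0.12 each. Of the further fork and origin genes 2 of 40 rose, RFC5 and MCM8 at 0.15 each, and of the further S-phase genes 5 of 32 rose, ATAD2, HELLS, E2F7, DUT and CDK2, by 0.14 to 0.21. TTR fell by 0.17 and SST rose by 0.44. The count of 14 depended on single libraries and on the tool: it was 7 with DESeq2 and 2 (MCM7 and CCNE2) with limma on log2(FPKM + 0.1). It was also 8 without negative siRNA with DMSO replicate 2 or without negative siRNA with 1-AKP replicate 3, 5 without negative siRNA with DMSO replicate 3 or without TUNAR siRNAs with DMSO replicate 2 or 3, and 4 without negative siRNA with 1-AKP replicate 2.

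In the fit of 4 group means, which leaves the replicate number out, few of the 33 genes passed between 1-AKP, the GSK3 inhibitor, and DMSO. With negative siRNA, FEN1 rose and E2F2 fell in 1-AKP relative to DMSO and the other 31 did not pass, a share of 3.03% in each direction, where 3.54% of all genes tested rose and 3.76% fell (edgeR, 4 group means). With TUNAR siRNAs, FEN1 alone passed, also 3.03%, where 3.72% of all genes rose and 3.79% fell. The counts depended on the fit: with the replicate number as a term, 13 of the 33 rose and 1 fell with negative siRNA (39.4% and 3.03%, against 14% and 12.8% of all genes tested), and 11 rose and 1 fell with TUNAR siRNAs (33.3% and 3.03%, against 14.2% and 12.9%). FEN1 and E2F2 are described because so few passed, and were chosen after their values were seen. Log2 fold changes above 0 were found for 27 of the 33 genes with negative siRNA (median 0.094, against -0.0035 for all genes tested) and for 25 with TUNAR siRNAs (median 0.071, against -0.00074). Among the further fork and origin genes 26 and 29 of 40 were above 0 (medians 0.05 and 0.074). For the further S-phase genes it was 19 of 32 with either siRNA (medians 0.04 and 0.025).

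FEN1, the endonuclease that trims the flaps of Okazaki fragments, was at 169, 169.8 and 184 CPM in negative siRNA with 1-AKP, against 138, 143 and 160.4 CPM in negative siRNA with DMSO. The means were 174 ± 8.45 and 147 ± 11.9 CPM (SD, n = 3 each), and the log2 fold change was 0.25 (SE 0.061, edgeR, adjusted p = 0.0292). All 3 libraries in 1-AKP lay above all 3 in DMSO. With TUNAR siRNAs FEN1 was at 177, 176 and 187 CPM in 1-AKP, against 149.9, 151.5 and 161 CPM in DMSO (0.22, SE 0.061, edgeR, adjusted p = 0.0412), again without overlap. At passage 74 the log2 fold change was 0.27 with negative siRNA and 0.23 with TUNAR siRNAs, and at passage 75, with 1 library a group, 0.20 and 0.21.

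E2F2, a transcription factor of the E2F family and the second lowest of the 33 genes, was at 32.3, 28.8 and 31.3 CPM in negative siRNA with 1-AKP, against 37.2, 35.1 and 37.9 CPM in negative siRNA with DMSO. The means were 30.8 ± 1.80 and 36.7 ± 1.44 CPM (SD, n = 3 each), with no overlap and a log2 fold change of -0.25 (SE 0.064, edgeR, adjusted p = 0.0322). With TUNAR siRNAs it was at 30.4, 31.99 and 30.7 CPM in 1-AKP, against 35.95, 32.9 and 35.4 CPM in DMSO. Those groups did not overlap either, but the log2 fold change of -0.16 did not pass (SE 0.064, edgeR, adjusted p = 0.152). At passage 74 the values were -0.24 and -0.15 and at passage 75 -0.27 and -0.205 (negative, then TUNAR siRNAs). E2F1, its relative, had log2 fold changes of 0.20 and 0.16 with adjusted p-values of 0.297 and 0.408 in edgeR.

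**Figure D5:**
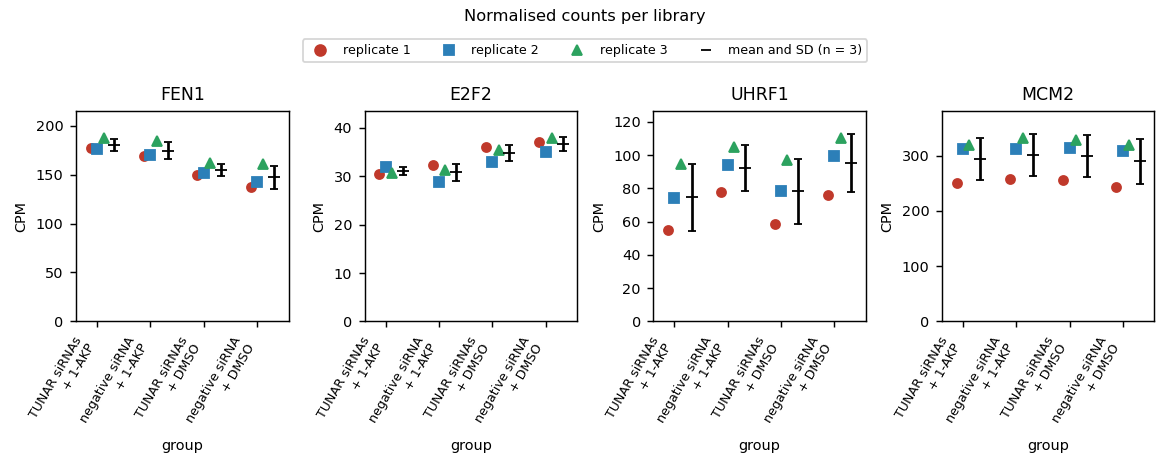
CPM of FEN1, E2F2, UHRF1 and MCM2 in each library, by group, with the mean and SD of 3 libraries beside the points; colour and shape give the replicate number. FEN1 is higher and E2F2 lower in both 1-AKP groups than in the DMSO groups with the same siRNA, while UHRF1 and MCM2 are lowest in replicate 1 of every group.

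The direction of these calls did not change in any alternative, but in the fit of 4 group means the calls themselves were near the threshold. With the replicate number as a term, adjusted p in edgeR was 4.22e-07 and 2.01e-06 for FEN1 (negative, then TUNAR siRNAs). For E2F2 with negative siRNA it was 0.000973. The replicate numbers did not pair these libraries by the rule given below. With passage as a covariate the 3 values in edgeR were 0.0019, 0.00324 and 0.0261. The losses that follow are from the fit of 4 group means. With negative siRNA the FEN1 call was lost without DMSO replicate 1 (edgeR, adjusted p = 0.0965) or 2 (0.115), or without 1-AKP replicate 2 (0.0681) or 3 (0.129), and that of E2F2 without DMSO replicate 1 (0.102), 2 (0.0541) or 3 (0.111), or without 1-AKP replicate 2 (0.14) or 3 (0.0857). With TUNAR siRNAs the FEN1 call was lost without any 1 of its own 6 libraries (edgeR, adjusted p from 0.0528 to 0.148) and without replicate 2 of negative siRNA with DMSO (0.0581) or with 1-AKP (0.0597). Without the 4 libraries numbered 1, FEN1, E2F2, RRM1 and CDC6 passed with negative siRNA and FEN1 and SLBP with TUNAR siRNAs, with log2 fold changes for FEN1 of 0.22 and 0.22.

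The 31 other genes with negative siRNA included 5 more whose groups did not overlap, all higher in 1-AKP: CDC6, RRM1, TYMS, SLBP and RFC4. With FEN1 these are 6 of 33, where 13.4% of all genes tested were apart in that direction, and E2F2 was the 1 apart in the other (12.5%). With TUNAR siRNAs 3 were apart and higher, FEN1, SLBP and RFC4 (12.1%), and E2F2 was apart and lower (12%). Among the genes that did not pass, CDC6 had a log2 fold change of 0.25 with negative siRNA (SE 0.084, edgeR, adjusted p = 0.096) and 0.16 with TUNAR siRNAs (SE 0.084, edgeR, adjusted p = 0.29). The 6 subunits of the helicase ring had log2 fold changes from -0.058 (MCM7) to 0.093 (MCM4) with negative siRNA and none passed. For 32 of the 33 genes the 95% interval of the log2 fold change lay within 0.5 of 0 in both comparisons. The exception in both was UHRF1, with intervals from -0.58 to 0.49 and from -0.61 to 0.47.

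Of the further fork and origin genes 2 of 40 rose in 1-AKP with either siRNA, the polymerase subunits POLD2 and POLE3. POLD2 was at 153, 152 and 157 CPM in negative siRNA with 1-AKP, against 134, 129.8 and 139 CPM in negative siRNA with DMSO (log2 fold change 0.20, SE 0.046, edgeR, adjusted p = 0.0229). POLE3 was at 83.4, 83.9 and 90.4 CPM in negative siRNA with 1-AKP, against 67.8, 71.0 and 69.5 CPM in DMSO (0.31, SE 0.072, edgeR, adjusted p = 0.0236). Neither overlapped, and with TUNAR siRNAs the log2 fold changes were 0.19 (edgeR, adjusted p = 0.0256) and 0.26 (0.0433). No G2 and mitosis gene passed with either siRNA in this fit, with 15 and 14 of 28 above 0. The beta-cell factors NKX2-2 and NKX6-1 fell in 1-AKP with both siRNAs, by 0.80 and 0.52 with negative siRNA and by 0.87 and 0.48 with TUNAR siRNAs. SESN1, a p53 target, fell as well, by 0.32 and 0.27, and no marker of other cell types passed in this fit. With the replicate number as a term more passed. Of the 40 fork and origin genes 12 rose and 1 fell with negative siRNA, and 13 rose and 4 fell with TUNAR siRNAs. Of the 28 G2 and mitosis genes 3 rose and 3 fell, then 2 rose and 5 fell. Of the 14 tested markers of other cell types 2 rose and 2 fell, then 1 rose and 3 fell. By that fit 14% of all genes rose and 12.8% fell with negative siRNA, and 14.2% and 12.9% with TUNAR siRNAs.

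TUNAR siRNAs against negative siRNA gave no call among the 33 genes in DMSO or in 1-AKP without a replicate block (edgeR, smallest adjusted p of 1 in each), and none had an unadjusted p under 0.05. Of all genes tested 0.0125% passed in DMSO and 0% in 1-AKP, while 776 and 743 had an unadjusted p under 0.05. DESeq2 and limma on log2(FPKM + 0.1) called none of the 33 either. The median log2 fold change of the 33 was 0.0073 in DMSO and -0.0016 in 1-AKP, and no member had groups that did not overlap, where 5.3% of all genes tested were apart and higher and 5.22% apart and lower in DMSO, and 4.5% and 4.47% in 1-AKP. The 95% intervals lay within 0.5 of 0 for 32 of the 33 genes in both treatments, with UHRF1 the exception, from -0.82 to 0.25 in DMSO and from -0.84 to 0.23 in 1-AKP.

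The replicate numbers met the rule for pairing in these 2 comparisons, and with the number as a block UHRF1 alone of the 33 genes passed. It was at 54.8, 74.05 and 94.9 CPM in TUNAR siRNAs with 1-AKP, against 77.9, 93.9 and 105 CPM in negative siRNA with 1-AKP (replicates 1, 2 and 3). In DMSO it was at 58.7, 78.5 and 97.2 CPM with TUNAR siRNAs, against 75.9, 99.3 and 110 CPM with negative siRNA. The ranges overlapped in both treatments, and within each replicate number UHRF1 was lower with TUNAR siRNAs in 3 of 3 pairs in each, as were 16.9% of all genes tested in 1-AKP and 18.4% in DMSO. With the block the log2 fold change was -0.32 in 1-AKP (SE 0.051, edgeR, adjusted p = 0.000455) and -0.29 in DMSO (SE 0.05, edgeR, adjusted p = 0.000893), against -0.31 (SE 0.23) and -0.28 (SE 0.23) without it. By the block fit 1.33% of all genes were lower and 1.44% higher in 1-AKP, and 1.34% lower and 1.71% higher in DMSO, and 1 of 33 genes is 3.03%, a single gene on which no count can be read. The blocked call was lost without replicate 2, at -0.30 (edgeR, adjusted p = 0.0663) in 1-AKP and -0.26 (0.109) in DMSO, and held without replicate 1 or without replicate 3. By passage the fold changes were -0.41 at 74 and -0.14 at 75 in 1-AKP, and -0.35 and -0.18 in DMSO. Of the 28 G2 and mitosis genes, MKI67 passed with the block, by 0.15 in 1-AKP and 0.14 in DMSO. TOP2A rose by 0.097 in DMSO, and none of the 28 fell. In DMSO, DBF4 fell by 0.18 (1 of 40 further fork and origin genes) and CCNE1 by 0.24 (1 of 32 further S-phase genes). No gene of these 2 lists passed in 1-AKP.

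The effect of 1-AKP was not shown to differ between the siRNAs for any member. A test of whether the siRNA effect depended on treatment called none of the 33 genes with or without the block (edgeR, smallest adjusted p of 1; 0% of all genes tested). Without the block 170 of all genes tested had an unadjusted p under 0.05 and none of the 33 was among them. DESeq2 and limma on log2(FPKM + 0.1) called none of the 33 there.

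The E2F letters described above were not confined to one direction of the difference between replicate numbers. Of the 23 genes that fell in the libraries numbered 1, 20 have a promoter window and 14 of those hold at least 1 E2F form. All 5 genes that rose have a window and 2 hold a form (GINS1 and RFC3), as do 3 of the 5 that were not called. FEN1, the gene called in both 1-AKP comparisons, holds no E2F form, no CCAAT and no TTTGAA in its window, while E2F2 holds 1 E2F form, 42 bases before its annotated start, shown above.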

How the data were processed

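The authors deposited, per the file headers, an expected count and an FPKM for each Entrez gene above 0 in each library; expected counts are estimated reads per gene, not normalised, and FPKM are scaled by gene length and depth. The submitters' processing notes name RSEM, Bowtie, BWA, GRCh37 and hg19 without roles; versions are not given in the sources used here. Unlisted genes were set to 0. Before fitting, expected counts were rounded (35.3% to 36.0% of a library's values had a fractional part). Symbols were matched for 21386 of 21508 identifiers (122 kept their ID). No 2 libraries of a group were copies by a chi-square check.

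Genes were kept by filterByExpr (minimum count 10, minimum total 15; 15990 genes), scaled by TMM (factors 0.99 to 1.014) and fitted in edgeR 4.0.16 (R 4.3.3) with 4 group means over all 12 libraries (8 residual degrees of freedom, biological coefficient of variation 8.74%). Replicate numbers were compared in an additive fit of group and number (6 and 2.86%). Adjusted p-values are Benjamini-Hochberg over all genes, with 0.05 as threshold. Both fits were run on simulated data with the spread of the fit of 4 group means and fold changes larger than those of called members. That run does not show how either fit acts at the smaller fold changes reported here. DESeq2 1.42.0 and limma 3.58.1 were alternatives. Same-numbered libraries deviated together in the siRNA comparisons (correlation over genes 0.376, 0.178 and 0.217 in DMSO, 0.416, 0.162 and 0.286 in 1-AKP, all over the minimum of 0.1), so the replicate block is given beside those. Values per library are named for the 14 called genes with the lowest p, others by range and count; of other lists those with the lowest p. The members were matched by gene name alone, with no measured value, but they and the lists were chosen with earlier results of these data known. The split of replicate 1 from the others was also known from those results. Some genes of the other lists are not reported here.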

Additional observations from a re-analysis of the deposited data

How the results depend on the processing

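No called value changed direction under any alternative. In 1-AKP against DMSO with negative siRNA (2 genes called) the count was 4 with passage as a covariate, 4 with numbers 2 and 3 only (an alternative added after the data were seen), 0 with only the 2 groups compared, 0 at passage 74 only, 14 with the replicate block, and 0 to 2 leaving out 1 library in turn. With TUNAR siRNAs (1 called) it was 2 with passage as a covariate, with numbers 2 and 3 only and with DESeq2, 0 with library totals only, limma on log2(FPKM + 0.1), limma on log2(FPKM + 1), only the 2 groups compared or passage 74 only, 12 with the block, and 0 to 2 leaving out 1 library. In these 2 comparisons 1 of the 3 correlations of same-numbered libraries was under 0.1 (0.427, 0.0871 and 0.223 with negative siRNA, 0.407, 0.0634 and 0.159 with TUNAR siRNAs), so the numbers do not pair them by the rule; 23 of the 33 genes with negative siRNA and 17 with TUNAR siRNAs were higher in 1-AKP within all 3 numbers, as were 27.8% and 27% of all genes tested. The block fit without 1 replicate number gave 4 to 11 in each, and 0 to 1 in the siRNA comparisons, where the full block gave 1 in each. Replicate 3 against replicate 2 (14 called) gave 7 with DESeq2, 2 with either limma fit and 4 to 20 leaving out 1 library. Replicate 1 against 2 and 3 (28 called) gave 21 to 28 over all alternatives; DESeq2 shared 21 and limma 23 of the 28. The interaction stayed at 0 throughout. The shares of all genes called under these alternatives are not given beside the counts, so a change in a count is not a result about the 33 genes. The causes were not tested.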
